A study of Mus musculus with 30 samples.

Results

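The comparison described here is between hippocampi of Se_LD mice, which received a low dose of mercury together with selenium, and of Se_Ctr mice, which received selenium without added mercury. The libraries were chosen by their treatment label alone, and they are 10 of the 30 libraries of the series, 5 from each group. All mice of the series were male BALB/c, an inbred mouse strain, and each library was made from the RNA of one mouse. The series crosses selenium with 3 levels of mercury, so that the groups Ctr, LD and HD had no added selenium and Se_Ctr, Se_LD and Se_HD had it, with 5 libraries in each of the 6 groups. Se_Ctr and Se_LD thus share the selenium and differ in the mercury. The selenium was given as selenium-methionine in the feed according to the series title. For the groups without selenium, the methods give 0.28 mg methylmercury (MeHg) per kg feed in LD and 5 mg per kg in HD, fed for 11 weeks to young mice. The MeHg stock held cysteine, and a cysteine stock was added to the control feed. The mercury and selenium content of the feed of the selenium groups, the duration and the age of these mice are not given in the sources used here, and low dose is used as the labels use it.

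MeHg is an organic mercury compound that crosses the blood-brain barrier, in part as a complex with cysteine carried by amino acid transporters, and that binds thiol and selenol groups. Selenium binds mercury tightly and is needed for selenoproteins, such as glutathione peroxidases and thioredoxin reductases, which keep peroxides and protein thiols reduced. In brain, selenium is supplied mainly by selenoprotein P, and cells exposed to electrophiles such as MeHg are known to raise glutathione synthesis and phase II enzymes through the transcription factor Nrf2. The comparison therefore asks which hippocampal transcripts differ with low-dose mercury when selenium is present in both groups.

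Depth was like in both groups. Gene counts summed to 7277756 to 10488656 reads in the Se_Ctr libraries, with a median of 9873274, and to 6559334 to 11331272 in the Se_LD libraries, with a median of 9600570. Values are normalized counts, the read counts of a gene divided by one size factor per library. Markers of the dentate gyrus, such as Prox1 (643 to 1014 normalized counts in Se_LD mice), and of the CA1 and CA3 fields were present in all 10 libraries. Markers of neighbouring tissues were present as well, and their amount differed between mice. For each marker list a score was computed per mouse as the mean log2 difference of its genes from the Se_Ctr mean. The thalamus score was 1.73 and 1.77 in Se_LD replicates 1 and 4, and -0.21, 0.43 and -0.12 in the other Se_LD mice. In Se_Ctr mice it was 0.76 in replicate 1 and between -0.28 and -0.02 in the others. The summed level of the 9 thalamus markers ranged from 1159 to 2501 normalized counts in Se_Ctr mice and from 1296 to 4852 in Se_LD mice, and none of them was at 0 in any library. The choroid plexus score was 0.82, 1.30 and 1.47 in Se_LD replicates 1, 2 and 4, but -2.92 and -4.68 in replicates 3 and 5, whereas Se_Ctr mice lay between -0.84 and 0.62. The summed level of the 16 choroid plexus markers ranged from 1360 to 56476 normalized counts in Se_LD mice and from 10962 to 31222 in Se_Ctr mice, and 3 of the markers were at 0 in a Se_LD library. Se_Ctr replicate 4 stood apart from the other Se_Ctr mice in its dentate gyrus score (0.50 against -0.19 to -0.07) and in its GABA neuron score (-0.42 against 0.04 to 0.16). In bulk tissue, fewer cells of a type and less RNA per cell cannot be told apart.

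**Figure D1:**
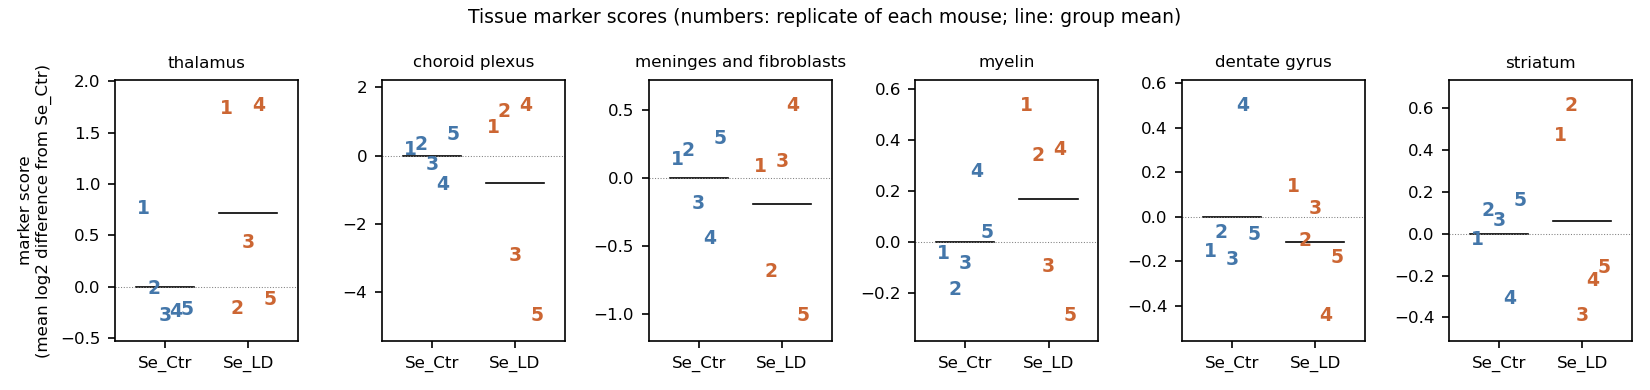
Marker scores of 6 tissues or cell types in each Se_Ctr and Se_LD mouse (y axis, mean log2 difference from the Se_Ctr mean; numbers are the replicates, lines the group means). Se_LD replicates 1 and 4 have thalamus scores of 1.73 and 1.77, and Se_LD replicates 3 and 5 have choroid plexus scores of -2.92 and -4.68.

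Few transcripts separated the groups, and none did so after adjustment for the number of genes tested. A gene is called here when limma gave it an unadjusted p under 0.05 for the 3 selenium groups together (F test) as well as for Se_LD against Se_Ctr (contrast). This held for 288 of the 19679 genes tested (1.46%), of which 173 (0.879%) were higher and 115 (0.584%) lower in Se_LD mice. Such p-values set the difference between groups against the spread between mice, here estimated over the 15 libraries of the selenium groups. The contrast alone gave 652 genes (3.31%). No gene had an adjusted p under 0.05 in limma, where the lowest adjusted p was 0.9998, and the counts in edgeR and DESeq2 were also 0, with lowest adjusted p-values of 0.649 and 0.0870 and 679 and 490 genes at an unadjusted p under 0.05. Of the called genes, 226 were protein coding (1.38% of those tested), and 109 of the 288 had a mean under 10 normalized counts over the 10 libraries. Among the 14204 genes whose mean reached 10 normalized counts, 179 (111 up and 68 down) were called, which is 1.26%. The median absolute log2 fold change of these 179 genes was 0.32, with extremes of 1.82 and -0.80, against 0.07 over all genes of that level. In 66 of the 14204 genes (0.465%) the 5 Se_LD mice lay beyond all 5 Se_Ctr mice, 38 above and 28 below. Both conditions were met by 28 genes, 15 higher and 13 lower in Se_LD mice.

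The balance between higher and lower genes moved with the thalamus score. With this score as a covariate, 84 genes were called up and 175 down, and without Se_LD replicates 1 and 4 the numbers were 77 and 206. Of the 111 genes called up with a mean of at least 10, 37 kept a contrast p under 0.05 with the covariate and 29 without these mice, and of the 68 called down 37 did so in each case. In contrast, with the choroid plexus score as a covariate 413 genes were called up and 241 down, and without Se_LD replicates 3 and 5 the numbers were 634 and 321.

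Among the genes higher in Se_LD mice without overlap of the groups was Prkch. It encodes protein kinase C eta and had the lowest contrast p of all genes with a mean of at least 10. Prkch was at 25.6, 18.2, 23.4, 17.9 and 24.0 normalized counts in Se_Ctr mice and at 54.2, 38.5, 35.6, 56.9 and 34.2 in Se_LD mice. The groups did not overlap, and Se_LD replicates 1 and 4, with the high thalamus scores, were the highest. The log2 fold change of Prkch (ENSMUSG00000021108, chromosome 12, 74685783 to 74879172, NCBIM37) was 0.96 with a 95% confidence interval from 0.55 to 1.36, and 0.71 without these 2 mice. Lama2, the laminin alpha 2 chain of basement membranes, was at 119, 97.7, 107, 129 and 106 normalized counts in Se_Ctr mice and 144, 135, 137, 155 and 143 in Se_LD mice. Its log2 fold change was 0.36 with an SE of 0.09, and the lowest Se_LD mouse lay just above the highest Se_Ctr mouse. Gcnt4, a glycosyltransferase that branches O-glycans, went from 70.0 ± 13.7 (SD, n = 5) to 97.7 ± 11.6 (SD, n = 5), a log2 fold change of 0.49 with an SE of 0.16. Dock8 encodes a guanine nucleotide exchange factor of Cdc42 that is best known from immune cells. Its values were 37.0, 34.6, 37.5, 38.5 and 36.4 in Se_Ctr mice and 50.5, 46.8, 48.8, 42.9 and 53.7 in Se_LD mice, a log2 fold change of 0.39 with an SE of 0.13, and here Se_LD replicate 4 was the lowest of its group. Asah2, a ceramidase, was at 158 ± 5.56 (SD, n = 5) in Se_Ctr and 194 ± 17.9 (SD, n = 5) in Se_LD mice, and Wdr19, a subunit of the ciliary transport complex IFT-A, at 139 ± 14.7 and 171 ± 21.4 (SD, n = 5 each), both with a log2 fold change of 0.29. The remaining genes of the 10 largest such increases were Itfg3, Depdc7, Gm5415 and the non-coding 4930471C04Rik, with log2 fold changes of 0.34, 0.63, 0.75 and 1.06, the last at means of 6.25 and 13.8 normalized counts.

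Of the genes lower in Se_LD mice without overlap, Commd3 had the lowest contrast p. Commd3, a subunit of the COMMD and CCDC complex that recycles membrane proteins from endosomes, was at 300.1, 370.0, 359, 359 and 322 normalized counts in Se_Ctr mice and at 279.8, 267, 273, 289 and 286 in Se_LD mice. The Se_LD mice lay close together, all below the lowest Se_Ctr mouse. Its log2 fold change was -0.29 with an SE of 0.07 (ENSMUSG00000051154, chromosome 2, 18594011 to 18597858), and it was -0.31 without Se_LD replicates 1 and 4. Gm10060 (ENSMUSG00000091171), a long intergenic non-coding RNA on chromosome 8, had 53.2, 70.9, 64.5, 65.4 and 63.7 normalized counts in Se_Ctr mice and 47.8, 42.7, 38.2, 34.7 and 50.0 in Se_LD mice, so that its log2 fold change was -0.57 (SE 0.14). Pts encodes 6-pyruvoyl-tetrahydropterin synthase, which is needed to make tetrahydrobiopterin, the cofactor of the enzymes that make dopamine, serotonin and nitric oxide. It was at 138, 179, 151, 151 and 171 normalized counts in Se_Ctr mice and at 128, 129, 132, 135 and 104 in Se_LD mice. Every Se_LD mouse was below every Se_Ctr mouse, by the narrowest margin between Se_LD replicate 4 and Se_Ctr replicate 1, and the log2 fold change was -0.33 with an SE of 0.10. Lipt2, a lipoyltransferase of mitochondria, went from 17.2 ± 1.59 to 10.0 ± 2.53 (SD, n = 5 each), a log2 fold change of -0.75 with an SE of 0.24. Btbd19 had 54.0 ± 3.21 normalized counts in Se_Ctr and 39.8 ± 2.71 in Se_LD mice (SD, n = 5 each), with a log2 fold change of -0.43. Dnalc4, a dynein light chain, and Dimt1, a methyltransferase of ribosomal RNA, had log2 fold changes of -0.26 and -0.30. Exons of Dimt1 overlap those of Kif2a on the other strand, and the strand setting of the counting is not given in the sources used here. Magee2, Serpina3c and Rps16 completed the 10 largest such decreases with log2 fold changes of -0.36, -0.63 and -0.36. Ribosomal protein genes such as Rps16 have near-identical pseudogene copies, and how reads shared with such copies were counted was not tested. For all of these genes the exact two-sided permutation p over 5 mice against 5 is 0.00794, the smallest this design allows, and it is fixed by the choice of genes whose groups do not overlap. All 28 genes kept their sign and a contrast p under 0.05 in edgeR, in DESeq2 and with the choroid plexus covariate. With the thalamus covariate all 28 kept their sign and 18 a contrast p under 0.05, 10 of them higher and 8 lower in Se_LD mice. Among those that did so were Prkch, Lama2, Gcnt4, Dock8, Commd3, Gm10060, Pts and Btbd19, while Wdr19, Itfg3, Serpina3c, Rps16 and Dimt1 were among those that did not. The log2 fold changes of these last genes with the covariate were 0.22, 0.26, -0.48, -0.30 and -0.27, in this order. The call was lost in 16 of 27 alternatives for Dimt1 and in 15 for Serpina3c.

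**Figure D2:**
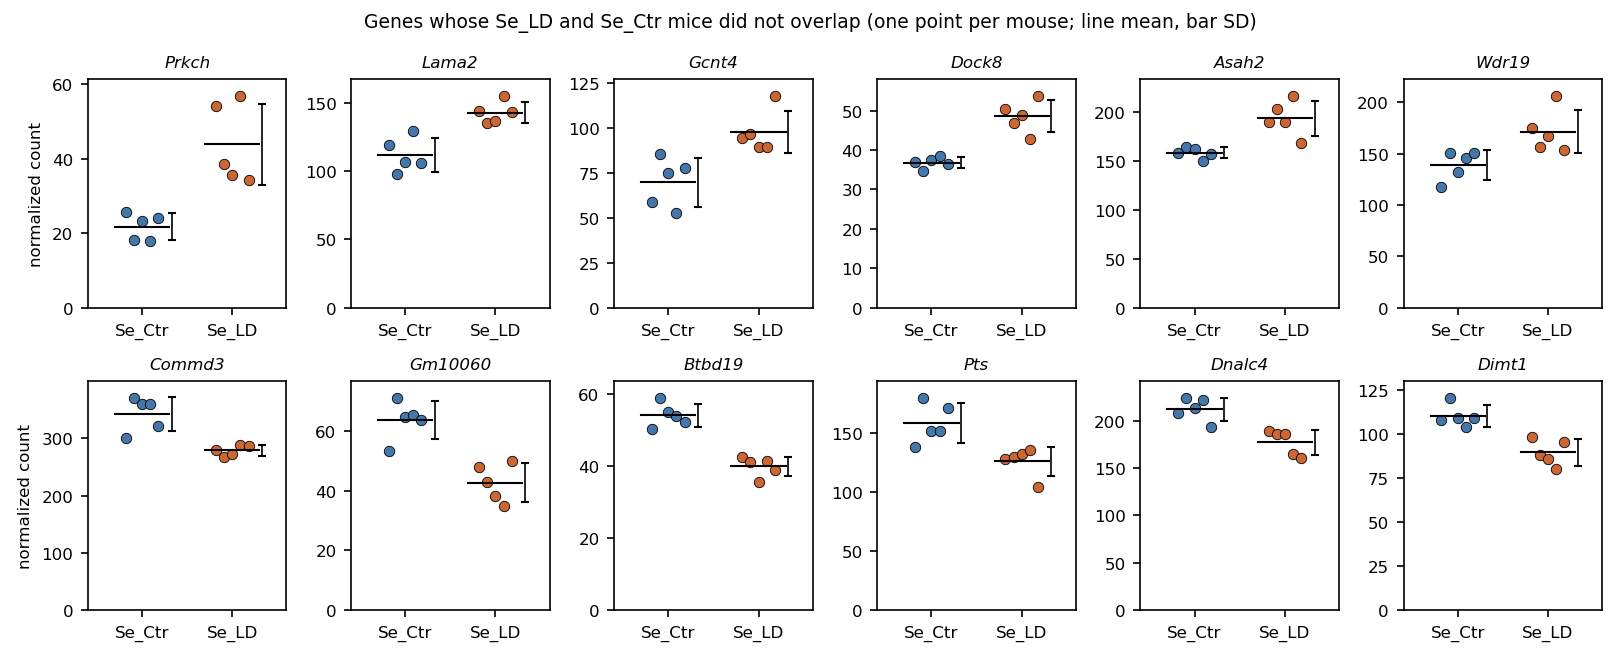
Normalized counts (y axis) of 12 genes in the 5 Se_Ctr and 5 Se_LD mice, one point per mouse, with the mean as a line and the SD as a bar. The upper row shows 6 genes in which all Se_LD mice lay above all Se_Ctr mice, such as Prkch, and the lower row 6 genes in which they lay below, such as Commd3.

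Among the 10 genes with the lowest contrast p, 4 had groups that overlapped. Fggy, a carbohydrate kinase of low level, was at 12.3, 6.05, 4.69, 8.06 and 6.62 normalized counts in Se_Ctr mice and at 17.1, 20.1, 17.1, 10.3 and 16.7 in Se_LD mice, which gave a log2 fold change of 1.05 (SE 0.27). Only Se_LD replicate 4 lay within the range of the controls. Tns1, a protein of focal adhesions, went from 449 ± 41.9 to 563 ± 87.3 (SD, n = 5 each). Cit encodes citron kinase, which acts in cytokinesis and is also found in neurons. It was at 611, 619, 612, 338 and 642 normalized counts in Se_Ctr mice and at 967, 549.5, 717, 1297 and 944 in Se_LD mice, with Se_Ctr replicate 4 far below its group and Se_LD replicate 2 within the control range. The log2 fold change of Cit was 0.64 with an SE of 0.19. It was 0.39 without Se_LD replicates 1 and 4, and 0.47 without Se_Ctr replicate 4 alone. Gpr151 is a receptor gene known for its expression in the habenula, a nucleus next to the thalamus. Its values were 8.55, 4.32, 5.86, 11.6 and 3.31 in Se_Ctr mice and 46.9, 12.5, 14.5, 90.9 and 10.2 in Se_LD mice. The high values were again those of Se_LD replicates 1 and 4, and the log2 fold change of 1.82 (SE 0.46) was 0.89 without them. Gpr151 had the largest log2 fold change of the called genes whose mean reached 10 normalized counts.

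Thalamus markers were the list with the highest share of called genes. All 9 had a log2 fold change above 0, with a median of 0.61 against -0.01 over all genes with a mean of at least 10, and 5 of the 9 were called, all up, where 0.879% of all genes were called up. Slc17a6 encodes VGLUT2, the vesicular glutamate transporter of thalamic and other subcortical neurons. It was at 301, 297, 277, 66.3 and 289.6 normalized counts in Se_Ctr mice and at 648, 267, 372, 717 and 332 in Se_LD mice. Se_LD replicates 1 and 4 were the highest of the 10 mice, Se_LD replicate 2 lay within the control range and Se_Ctr replicate 4 was far below its group. The log2 fold change of 1.00 (SE 0.33) was 0.56 without Se_LD replicates 1 and 4, and 0.57 without Se_Ctr replicate 4 alone. Tcf7l2, a transcription factor of the Wnt pathway that marks thalamic neurons, was at 178, 84.7, 75.0, 113 and 74.5 in Se_Ctr mice and at 398, 58.5, 185, 558 and 120.3 in Se_LD mice, and its log2 fold change was 0.98 (SE 0.42). Its groups overlapped, and without Se_LD replicates 1 and 4 the value was 0.14. Ramp3, which modifies calcitonin-family receptors, had a log2 fold change of 0.97, Plekhg1 one of 0.58 and Lef1, the partner of beta-catenin in Wnt signalling, one of 0.50, and without these 2 mice they were 0.19, 0.11 and 0.23. The median of the list was 0.45 in LD against Ctr mice, which share no library with this comparison, and -0.09 in Se_HD against Se_Ctr mice, which share the Se_Ctr libraries. The scores of the LD mice were uneven as well, at 0.65 and 1.74 in replicates 4 and 5 and between -0.28 and 0.05 in the others, and Ctr replicate 1 was at 0.83. The called genes of other lists and classes included several with the same distribution over mice. Rora, a nuclear receptor of the clock list that is also abundant in thalamus, was at 532, 446, 428, 433 and 484 normalized counts in Se_Ctr mice and at 829, 447, 547, 945 and 553 in Se_LD mice, and its log2 fold change went from 0.46 to 0.15 without Se_LD replicates 1 and 4. Slc5a7, the choline transporter of cholinergic neurons, was at 26.2 and 48.0 normalized counts in these 2 mice, between 6.69 and 7.91 in the other Se_LD mice and between 2.59 and 11.7 in Se_Ctr mice. Chrna4, a nicotinic receptor subunit, and Ret, the receptor of glial neurotrophic factors, had log2 fold changes of 0.62 and 0.60, and 0.35 and 0.26 without them. These 3 genes were singled out after their values had been seen.

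**Figure D3:**
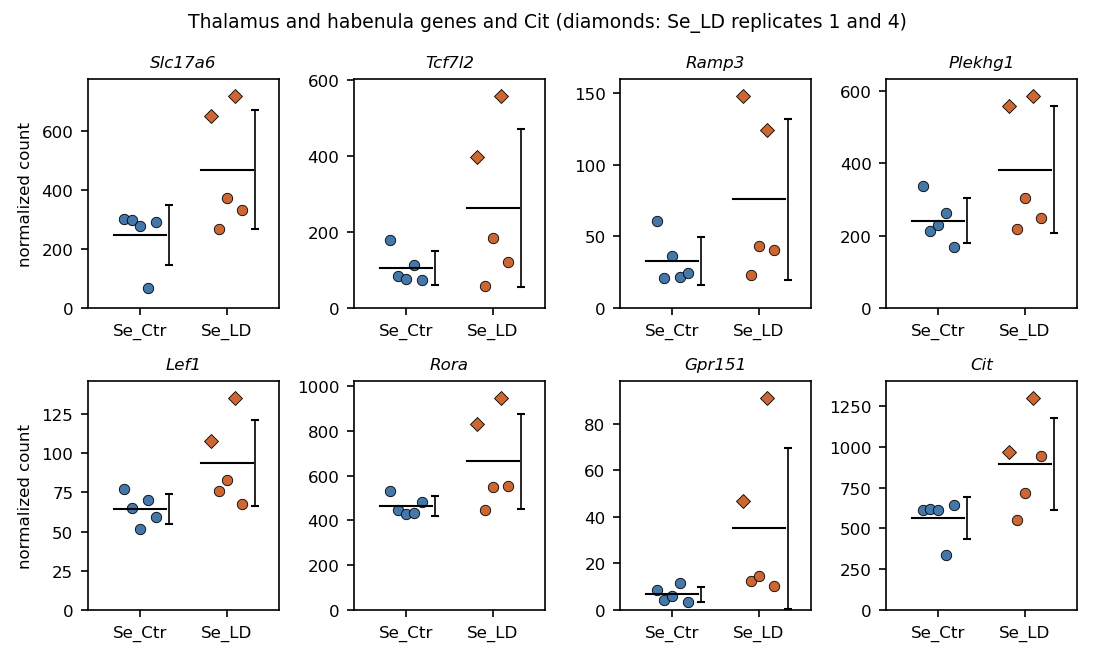
Normalized counts (y axis) of 6 genes abundant in thalamus, the habenula gene Gpr151 and Cit in the 5 Se_Ctr and 5 Se_LD mice, one point per mouse, with the mean as a line and the SD as a bar. Diamonds mark Se_LD replicates 1 and 4, which have the 2 highest values in every panel.

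The choroid plexus, which makes cerebrospinal fluid and expresses transthyretin (Ttr) at a very high level, contributed a variable share of RNA. Ttr was at 11638, 16084, 13022, 5226 and 19164 normalized counts in Se_Ctr mice and at 21101, 23941, 718, 34026 and 96.3 in Se_LD mice. Thus 3 Se_LD mice lay above every control and 2 far below, and the log2 fold change of -1.53 had an SE of 1.10 (exact two-sided permutation p = 0.698). Folr1, a folate receptor of this epithelium, was at 5.27 and 1.85 in Se_LD replicates 3 and 5 and at 243 to 365 in the others, and Sostdc1 was at 0 in Se_LD replicate 5. All 16 choroid plexus markers had a log2 fold change below 0, with a median of -0.79, and 0 of 16 were called, where 1.46% of all genes were. The direction turned with the method and with 2 mice. The median was 0.50 in edgeR, 0.47 in DESeq2, 0.20 without Se_LD replicate 5 and 1.22 without Se_LD replicates 3 and 5. Igf2, which is made by choroid plexus and meninges, ran with them and was at 982 and 570.2 normalized counts in Se_LD replicates 3 and 5 against 3923 to 5085 in the other Se_LD mice and 1399 to 3449 in Se_Ctr mice. The meninges and fibroblast list had 3 members above and 9 below 0, with a median of -0.24 and no called gene. Blood cell, striatum and neocortex lists had no called gene either, with medians of 0.14, 0.04 and -0.03.

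Of 9 redox selenoenzymes tested, 1 was called, where 1.46% of all genes were. Txnrd3 encodes the thioredoxin and glutathione reductase, a selenoenzyme best known from testis. It was at 25.6, 27.7, 31.6, 41.2 and 28.1 normalized counts in Se_Ctr mice and at 24.4, 29.3, 14.5, 21.4 and 12.0 in Se_LD mice, so that 4 Se_LD mice lay below every control and replicate 2 within their range. Its log2 fold change was -0.63 with an SE of 0.23 (exact two-sided permutation p = 0.0397), and the call was lost in 13 of 27 alternatives, among them edgeR and the choroid plexus covariate, where the value was -0.51. It was -0.28 without Se_LD replicates 3 and 5, but -0.72 with the thalamus covariate and -0.78 without Se_LD replicates 1 and 4. The other redox selenoenzymes did not pass. Gpx4, which reduces lipid peroxides, was at 1039.5 ± 139.6 (SD, n = 5) in Se_Ctr and 1018 ± 84.2 (SD, n = 5) in Se_LD mice, and its log2 fold change was -0.02 with a 95% confidence interval from -0.22 to 0.17. For Gpx1, the cytosolic glutathione peroxidase, the interval was -0.35 to 0.27, and for the cytosolic thioredoxin reductase Txnrd1 it was -0.13 to 0.16. Dio3, the deiodinase that inactivates thyroid hormone, was at 39.9, 50.1, 39.9, 7.17 and 63.7 normalized counts in Se_Ctr mice and at 4.51, 5.85, 54.0, 48.8 and 13.9 in Se_LD mice, with a log2 fold change of -0.97 (SE 0.57, exact two-sided permutation p = 0.341). It was low in 3 Se_LD mice and in 1 control, and the groups overlapped. Dio2, which activates the hormone, had a value of 0.10. Among 21 other selenoproteins and genes of selenium transport and selenocysteine synthesis none was called. Sepp1, selenoprotein P, was at 1865 ± 113 and 1896 ± 169 (SD, n = 5 each), with an interval from -0.17 to 0.21. Sepw1, a small selenoprotein abundant in brain, was at 5973 ± 569 and 5599 ± 403 (SD, n = 5 each), with an interval from -0.24 to 0.06. Over its 20 members with a mean of at least 10, the median was -0.04, with 7 above and 13 below 0.

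Among genes that metals and electrophiles are known to induce, no list held a called gene, which at 1.46% called over all genes does not set lists of 5 to 21 members apart. Metallothioneins bind zinc, copper and mercury through their cysteines. Mt1 was at 872 ± 140.1 in Se_Ctr and 879.6 ± 147 in Se_LD mice, Mt2 at 627 ± 146 and 609.5 ± 105, and the brain form Mt3 at 1859 ± 253 and 1847 ± 104 (SD, n = 5 each). The intervals of their log2 fold changes were -0.22 to 0.25, -0.33 to 0.29 and -0.18 to 0.17. Of the 16 genes of the Nrf2 axis and glutathione synthesis, 0 were called, and the median was 0.04. Nqo1, a quinone reductase, was at 59.8, 58.8, 48.1, 64.5 and 76.1 normalized counts in Se_Ctr mice and at 79.4, 67.7, 65.9, 82.0 and 53.7 in Se_LD mice, and its log2 fold change was 0.18 with an interval from -0.12 to 0.47. Hmox1, heme oxygenase 1, had an interval from -0.32 to 0.48 and Gclc, the catalytic subunit of glutathione synthesis, one from -0.19 to 0.13. Bach1, which represses Nrf2 targets and was singled out after its values had been seen, was called at 282 ± 16.3 and 323 ± 43.0 normalized counts (SD, n = 5 each), with a log2 fold change of 0.19 and an exact two-sided permutation p of 0.111, and the call was lost in 19 of 27 alternatives. None of the 21 glutathione S-transferases was called (median 0.02), nor of the 10 superoxide dismutases, catalase and peroxiredoxins (median 0.01) or of the 11 tested amino acid and ABC transporters of MeHg (median 0.06). Gstm1 had a log2 fold change of 0.04, Sod1 of -0.06 and Sod2 of 0.04, each with an SE of 0.07 to 0.11.

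**Figure D4:**
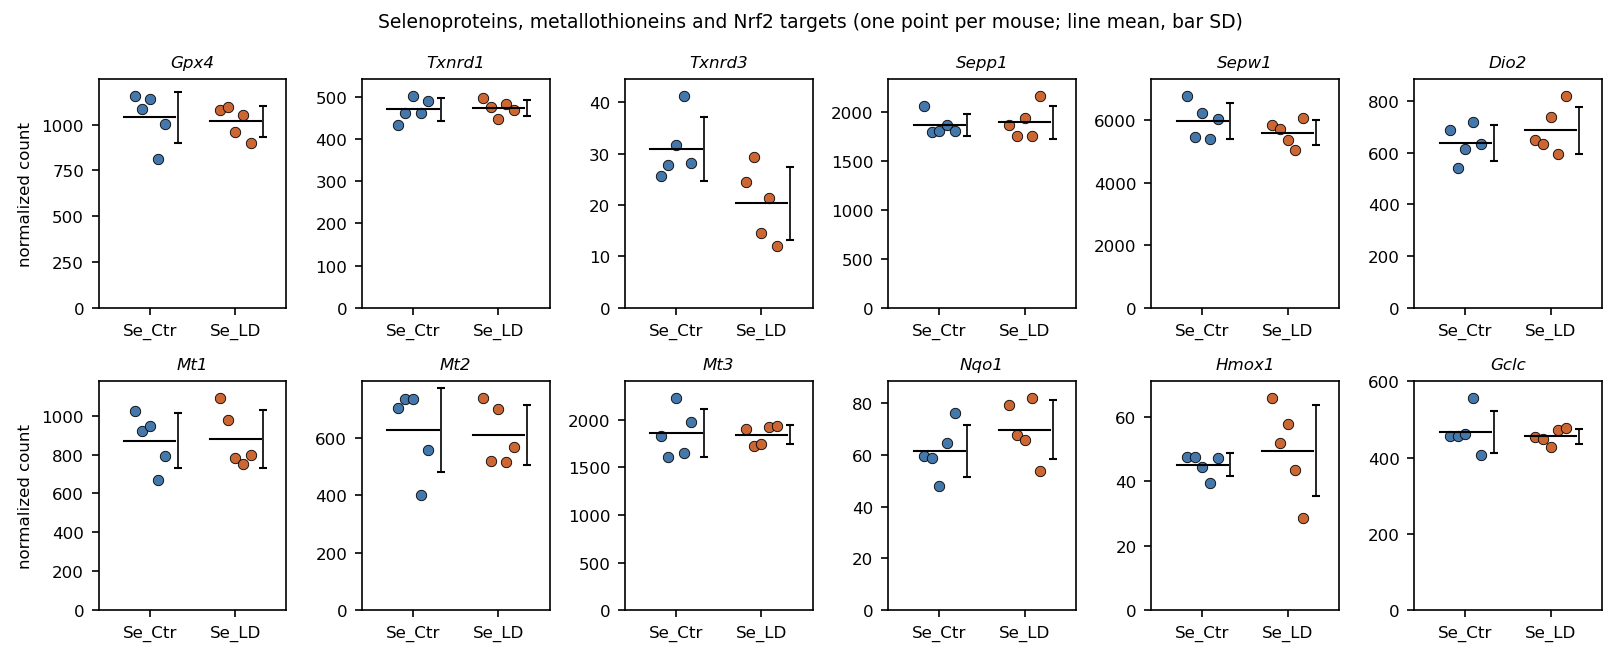
Normalized counts (y axis) of 6 selenoprotein genes, 3 metallothioneins, and Nqo1, Hmox1 and Gclc in the 5 Se_Ctr and 5 Se_LD mice, one point per mouse, with the mean as a line and the SD as a bar. Of these genes Txnrd3 was the one called, with means of 30.9 and 20.3, and the groups overlapped in every panel.

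Glial lists held 0 to 2 called genes each, where 1.46% of all genes were called. Of 14 homeostatic microglia markers, Sall1 was called, a transcription factor that keeps microglial identity and is also found in other neural cells. It was at 196, 203, 179, 215 and 179.5 normalized counts in Se_Ctr mice and at 211, 245, 244, 245 and 223 in Se_LD mice, where only replicate 1 lay below the highest control. Its log2 fold change was 0.26 with an SE of 0.09, and Csf1r, the receptor on which microglia depend, had 0.14 and was not called. Of 20 tested genes of activated microglia and complement, Mpeg1, a pore-forming protein of macrophages, was called up and C1qa, a chain of complement C1q, down. Mpeg1 was at 253 ± 23.3 and 288 ± 14.2 (SD, n = 5 each) with a log2 fold change of 0.19. C1qa was at 259, 219.6, 247, 215 and 253 normalized counts in Se_Ctr mice and at 250.0, 222, 188, 189 and 179.6 in Se_LD mice, with a log2 fold change of -0.22 and a wide overlap through Se_LD replicates 1 and 2. C1qb, another chain, had -0.14 and was not called. Reactive astrocyte markers had no called gene (0 of 12), and Gfap, the intermediate filament of astrocytes, was at 1792 ± 255 and 1817 ± 352 (SD, n = 5 each). Homeostatic astrocyte markers had no called gene, although all 12 lay above 0, with a median of 0.07 and a highest value of 0.17. Myelin genes were also not called (0 of 13), with a median of 0.17. Their score was 0.53, 0.34 and 0.36 in Se_LD replicates 1, 2 and 4 and -0.09 and -0.29 in replicates 3 and 5, against -0.18 to 0.28 in Se_Ctr mice. Of the oligodendrocyte precursor list Gpr17 passed the contrast (log2 fold change 0.18, exact two-sided permutation p = 0.135) but not the F test. In the endothelial list Flt1, a receptor of vascular growth factor, was called, with 588 ± 29.7 in Se_Ctr and 668 ± 58.1 in Se_LD mice (SD, n = 5 each).

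With 1.46% of all genes called, neuronal lists gave Bdnf, a neurotrophin induced by activity, as the one called gene of 20 immediate early genes. It was at 594, 494, 611, 587 and 597 normalized counts in Se_Ctr mice and at 488, 569, 511, 372 and 528 in Se_LD mice. Se_Ctr replicate 2 was the low control and Se_LD replicate 4 the lowest of all, and the log2 fold change was -0.23 (SE 0.10), and -0.10 without Se_LD replicates 1 and 4. The call of Bdnf was lost in 17 of 27 alternatives. Fos, the classic immediate early gene, had 0.16 and Homer1 -0.18, and the list median was 0.03. None of the 15 GABA neuron genes, 22 glutamate receptor genes, 15 neuropeptides, 10 dentate gyrus and 13 CA field markers or 14 genes of neurogenesis and proliferation was called, with list medians of -0.05, -0.01, -0.06, -0.13, -0.04 and 0.08. Gad1, which makes GABA, had a log2 fold change of -0.02, and Gria1, an AMPA receptor subunit, one of -0.02. The clock list had 16 of 20 members above 0 and 2 called genes, Rora and its relative Rorb, with a median of 0.14. Rorb was at 389.5 ± 28.4 and 471 ± 72.9 (SD, n = 5 each), a log2 fold change of 0.26. The period gene Per2 was at 264 ± 38.1 and 259 ± 41.1 (SD, n = 5 each), with -0.03.

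Metabolic and stress lists held 0 or 1 called gene each, where 1.46% of all genes were called. Plin4, a lipid droplet protein of the glucocorticoid response list, was called at 16.1, 29.4, 19.9, 27.8 and 18.2 normalized counts in Se_Ctr mice and 37.9, 29.3, 25.0, 37.7 and 37.0 in Se_LD mice, with a log2 fold change of 0.58, and its exons overlap those of Hdgfrp2 on the other strand. In Se_LD mice 3 of 5 were above every control. Pdia4, a disulfide isomerase of the endoplasmic reticulum, was the called gene of 23 heat shock and unfolded protein response genes, with means of 276 ± 33.9 and 351 ± 67.6 (SD, n = 5 each). Of 81 cytosolic ribosomal protein genes tested Rps16 was called, and the median was 0.00. None of 87 nuclear genes of oxidative phosphorylation, 25 genes of the mitochondrial genome, 21 of cholesterol and fatty acid synthesis, 20 of the interferon response or 12 of MHC class I and II was called, with medians of -0.03, -0.07, 0.02, 0.07 and 0.03. Of the members with a mean of at least 10, 3 lay above and 15 below 0 in the mitochondrial genome list, and 9 above and 3 below in the interferon list. Singled out after their values had been seen were Aco1, which as iron regulatory protein 1 controls ferritin and transferrin receptor, called at 244 ± 16.4 and 279 ± 16.7 (SD, n = 5 each), and Cd36, a fatty acid receptor, at 17.8 ± 3.07 and 11.7 ± 5.73, where Se_LD replicate 4 lay within the controls. With the thalamus covariate Plin4, Pdia4 and Aco1 no longer had a contrast p under 0.05, and neither did Mpeg1 or Rorb. The log2 fold changes of Plin4, Pdia4, Mpeg1 and Rorb were 0.50, 0.28, 0.15 and 0.21 with the covariate. Without it they were 0.58, 0.33, 0.19 and 0.26. Sspo, a secreted protein of the subcommissural organ that was likewise singled out after its values had been seen, was at 8.62 ± 3.68 and 18.0 ± 6.59 normalized counts.

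**Figure D5:**
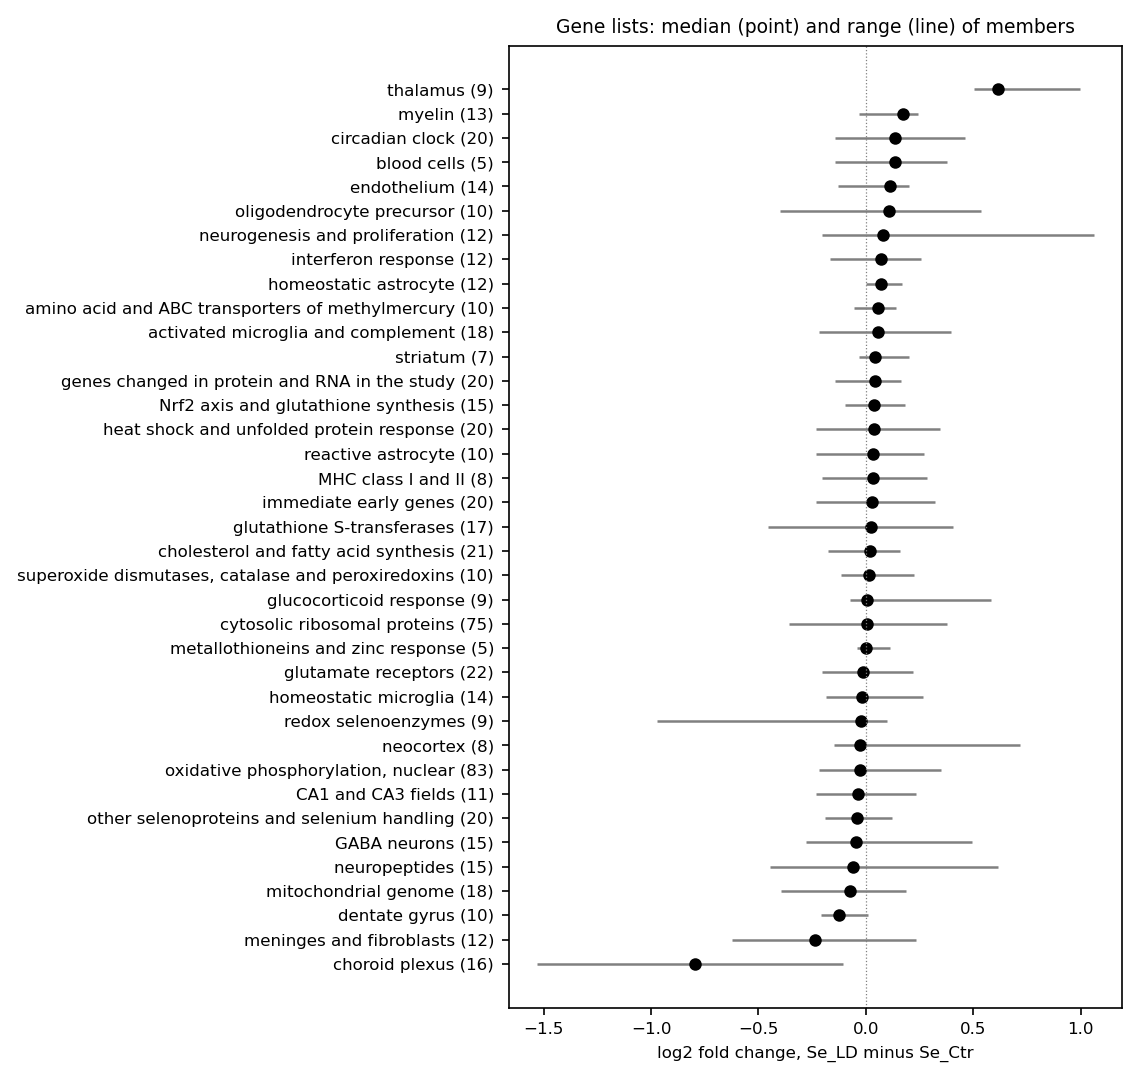
Median (point) and range (line) of the log2 fold change of Se_LD against Se_Ctr (x axis) over the members of 37 gene lists whose mean reached 10 normalized counts, with their number in brackets, leaving out the 10 genes picked for their LD values. The thalamus list lies highest, with a median of 0.61, and the choroid plexus list lowest, with -0.79, and the other medians lie between -0.24 and 0.17. The thalamus median was 0.11 without Se_LD replicates 1 and 4, and over the alternatives the choroid plexus median ran from -2.11 to 1.22.

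The study named 20 genes whose protein and RNA both changed with MeHg in mice without selenium. The list was chosen on other libraries of this series, over Ctr, LD and HD mice together and independent of dose. The paper describes those that also passed its comparisons between single groups as mainly affected by the high dose. In its comparison of LD with Ctr mice none of the 20 RNAs passed. A count of 0 in Se_LD mice is thus not the loss of a low-dose RNA change reported by the study. In Se_LD against Se_Ctr mice 0 of these 20 were called and none passed the contrast, where the lowest limma p was 0.119. Over all genes 1.46% were called and 3.31% passed the contrast, so that a count of 0 among 20 genes does not set them apart. Their log2 fold changes lay between -0.14 and 0.16 with a median of 0.04, and 12 were above and 8 below 0. Apoe, the main lipoprotein of brain, had 0.07, Gfap 0.01, Gad1 -0.02, Vamp1, a synaptic vesicle protein, 0.12, C1qb -0.14, Oat, an ornithine aminotransferase, 0.09, and Hadhb of fatty acid oxidation 0.09.

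The low-dose effect was next set beside that in mice without selenium, LD against Ctr, which uses other libraries. There 292 of 20031 genes (1.46%) met the same conditions. Of the 288 genes called in Se_LD mice and the 292 called in LD mice 6 were shared, 2.08% of the first list and 2.05% of the second, and 4 of the 6 had the same sign. Of the 179 called genes whose mean reached 10 normalized counts, 71 (39.7%) had the same sign in LD mice, and of the 276 genes called in LD mice and tested here 129 (46.7%) did so, where the share over all genes in both fits was 46.3%. Of the 28 called genes without overlap 8 had the same sign and 0 a contrast p under 0.05 in LD mice. In the test of the difference itself, the interaction over all 30 libraries, 801 of 21383 genes (3.75%) had an unadjusted limma p under 0.05, 400 with a higher and 401 with a lower value in the selenium groups, and 0 had an adjusted p under 0.05, where the lowest was 0.998. The 5 genes with the lowest interaction p at a mean of at least 10 were Fggy, Bbs9, Gpr116, Vrk2 and Fam63a. Vrk2, a serine and threonine kinase, had a log2 fold change of 0.75 in Se_LD and -0.41 in LD mice, with means of 20.3 in Ctr, 14.6 in LD, 12.9 in Se_Ctr and 22.2 in Se_LD mice. Gpr116, an adhesion receptor, had 0.22 and -0.20, Bbs9, a subunit of the ciliary BBSome, 0.19 and -0.47, and Fam63a 0.22 and -0.34. Fggy had 1.05 in Se_LD and -0.48 in LD mice. Exons of Vrk2 and Fam63a overlap those of other genes on the other strand. Of the other genes named here, the same holds for Rora, Ramp3, Ttr, Igf2, Gpr17, Dio2, Prox1, Csf1r, Zic1, mt-Co1, Gm17393 and 4933407L21Rik. Pdia4 holds a microRNA gene on its own strand, and Fam63a also overlaps a further entry of its own symbol on the same strand.

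A set of 10 genes had been picked earlier because their LD and Ctr mice did not overlap. In Se_LD mice 0 of the 10 were called, their groups overlapped in all 10, and 3 had the sign they had in LD mice. Over all genes with a mean of at least 10, 1.26% were called and 0.465% had groups without overlap, so that these counts do not set the 10 genes apart. Scube1, a secreted protein with EGF domains, was at 315, 235, 395, 448 and 345 normalized counts in Se_Ctr mice and at 344, 454, 286, 364 and 232 in Se_LD mice. The log2 fold change was -0.05 with an SE of 0.17, beside 0.99 in LD mice. Lhfpl1 had -0.28 beside 0.99 and Zap70, a kinase of T cells, -0.35 beside 0.69. 4933407L21Rik had 0.29 beside 0.65, and Gm17393 -0.08 beside 0.56. Among those lower in LD mice, Fbln5, an elastic fibre protein, had -0.14 beside -0.68, Xkrx 0.31 beside -0.65, Per2 -0.03 beside -0.57, Slc13a3, a carboxylate transporter, 0.14 beside -0.51, and Rhobtb2 0.13 beside -0.28. The LD values of these genes were used to choose them, so that their difference between the diets is a description.

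In Se_HD mice, which are compared with the same Se_Ctr mice, 405 genes (2.06%) were called and 0 had an adjusted p under 0.05 in limma, with 825 at an unadjusted contrast p under 0.05. The log2 fold changes against Se_Ctr were 0.96 in Se_LD and 0.08 in Se_HD mice for Prkch, 0.36 and 0.26 for Lama2, 0.49 and -0.20 for Gcnt4, and 0.39 and 0.32 for Dock8. For the lower genes they were -0.29 and -0.11 for Commd3, -0.57 and -0.20 for Gm10060, -0.33 and -0.15 for Pts and -0.63 and -0.27 for Txnrd3. Gfap had 0.01 in Se_LD and 0.51 in Se_HD mice, Mpeg1 0.19 and 0.42, and Slc17a6 1.00 and -0.03.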

How the data were processed

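Hippocampal RNA of single mice was sequenced as single-end reads by the authors, who had them trimmed with Trim Galore 0.4.2, mapped with HISAT2 to NCBIM37, counted per gene with featureCounts and divided by DESeq2 size factors. The deposited signal values are these normalized counts of 21412 genes, of which the lowest summed to 11 reads. In each library all values (100%) were multiples of what 1 read is worth, within 0.05 reads, so that depth and counts were recovered. Names and positions are those of the NCBIM37 annotation, where 21326 identifiers had a symbol.

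Groups were taken from the treatment label. Replicates are numbered in accession order and have no order or pairing. The labels name one library per RNA sample and the methods singly housed mice. The log2 of the value plus 1 was fitted with limma 3.58.1 (R 4.3.3) over the 15 selenium libraries, with variances moderated by a trend, for genes that summed to 10 or more normalized counts. A gene was called when the F test over 3 groups and the contrast both had an unadjusted p under 0.05, and adjustment over all genes was by Benjamini-Hochberg. The interaction used all 30 libraries. Intervals are 95% confidence intervals of limma. Exact two-sided permutation tests compared 5 mice with 5, with a smallest p of 0.00794.

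Members of the 38 gene lists and the tests were chosen with earlier results of these data known. Listed symbols were matched by symbol or an older name. Named are the 10 lowest contrast p-values, the 10 largest increases and decreases among called genes whose groups did not overlap (both at a mean of at least 10), called list members, the genes of the study's lists, the most abundant member of each list and the 5 lowest interaction p-values, and the text names part of these. Other members of the lists were named as anchors after their values had been seen. Lists are described without a test. The alternatives were pseudocounts of 0.1 and 10, filters, normalizations, edgeR 4.0.16 and DESeq2 1.42.0 on recovered reads, covariates, other sets of libraries and leaving out each mouse. Chosen after seeing the data were the thalamus covariate, alone and with the choroid plexus score, and the fits without Se_LD replicates 1 and 4 or 3 and 5. The fits were tested on simulated data. Proteomic data were not analysed here. One result is not reported here.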

Additional observations from a re-analysis of the deposited data

Results flagged for a closer look

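In groups of 5 mice, a mouse was marked when its gap to the nearest of the others exceeded 0.71 of the range of its group. Among 294 groups of values (108 genes, 38 list scores and the read totals, each in Se_Ctr and Se_LD mice) 24 were marked, where chance marks about 1 in 20, here 14.7. Se_Ctr replicate 4 was marked most often, in Cit (0.897), Slc17a6 (0.896), Gstm1 (0.782), Sod1 (0.751) and Prox1 (0.723), and in the scores of redox selenoenzymes (0.853), dentate gyrus (0.825), GABA neurons (0.795), nuclear oxidative phosphorylation (0.773) and cytosolic ribosomal proteins (0.728). Its Slc17a6 level was 66.3 normalized counts against 277 to 301 in the other Se_Ctr mice, and its Prox1 level 1341 against 731 to 900.2.

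Se_Ctr replicate 1 was marked in the thalamus score (0.748), Zic1 (0.736) and Sepp1 (0.719), and Se_Ctr replicate 2 in the score of cholesterol and fatty acid synthesis (0.858), Bdnf (0.796) and Itfg3 (0.764). Se_LD replicate 4 was marked in Serpina3c (0.842), mt-Co1 (0.838) and Fbln5 (0.735). Se_LD replicate 5 was marked in Pts (0.777), the score of MHC class I and II (0.752), Per2 (0.75) and Gcnt4 (0.729), and Se_LD replicate 2 in Gpr116 (0.736). No gene of the text had an adjusted interaction p under 0.05 in limma, and in none did all mice move one way with selenium and the opposite way without it.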

How the results depend on the processing

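The 288 called genes became 652 without the condition on the F test. They became 552 with the 10 libraries alone, where 2 groups leave the contrast as the one condition. With all 30 libraries they became 166, and 419 genes passed the contrast. There the F test still covered the 3 selenium groups, while the spread was estimated over 6 groups. The called genes became 654 with the choroid plexus covariate and 955 without Se_LD replicates 3 and 5. Leaving out one mouse gave 226 to 553 genes, 226 without Se_Ctr replicate 3, 436 without Se_Ctr replicate 4 and 553 without Se_LD replicate 2. No gene had an adjusted p under 0.05 in any of these fits or the other alternatives. Of the called genes 60.1% were up, against 69.9% in edgeR, 68.75% in DESeq2, 48.6% without Se_LD replicate 1, 47.0% without replicate 4, 51.4% without Se_Ctr replicate 4, 32.4% with the thalamus covariate, 27.2% without replicates 1 and 4 and 48.6% with both covariates. The 801 interaction genes became 459 with a mean of at least 10, with fewer genes tested. Of 49 called genes named, 9 kept the call in every fit in which they were tested (Prkch, Commd3, Gm10060, Gpr151, Fggy, Lama2, Tns1, Gcnt4 and Vrk2) and 40 lost it in at least one. Of the 59 named genes not called, 39 changed sign in at least one.

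With both covariates Tcf7l2 turned to -0.19 and Ramp3 to -0.0909. Ttr, Folr1 and Sostdc1 turned to 1.11, 1.39 and 1.19 without Se_LD replicates 3 and 5. Igf2 turned to 0.32 with the choroid plexus covariate, 0.29 with both and 0.94 without replicates 3 and 5. Zic1 turned to -0.60 with the thalamus covariate. Tcf7l2, Ramp3 and Zic1 are members of the thalamus score, so that this adjustment lowers them by construction. The cause of the other shifts was not tested.

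The labels give no replicate numbers and name no pairs. With library numbers in sets of 6 as a block, which puts 1 Se_LD and 1 Se_Ctr mouse in each of 5 sets, 297 genes were called. The deviations of mice in one set correlated at -0.167 to 0.0802. The depth limits genes with a mean under 10 normalized counts, which made up 37.8% of the called genes.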
